A study of Mus musculus with 4 samples.

Results

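The 9 genes described here, Brca1, Brca2, Rad51ap1, Rad54l, Exo1, Blm, Fancd2, Fanca and Brip1, act in homologous recombination and in the Fanconi anaemia pathway. They were taken as a named list, each through the probe set that carries its symbol alone, and they are 9 of 19938 genes with such a probe set and 9 of 12581 genes above background. Each of the 9 had 1 such probe set, so no choice between probe sets was needed. The list was chosen with earlier results of these data known. Homologous recombination copies an intact sister chromatid to mend a broken chromosome, and the Fanconi pathway unhooks crosslinks between DNA strands before handing the break to recombination. Both work mainly in S and G2 phase, and many of their genes are transcribed when cells enter the cycle. In the thymus most division occurs before the CD4 single-positive stage, and mature CD4+ thymocytes are largely resting. On these arrays, however, many mitosis genes read higher in WT Qa2+ than in WT Qa2- cells, as given below.

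Expression was measured in CD4+ thymocytes of 8-week-old C57BL/6n mice, with 1 Affymetrix Gene 1.0 ST array for each of 4 sorted populations. The miR-142-/- cells came from a pool of 4 mice (1 female and 3 males) that lacked the microRNA gene Mir142, and the WT (miR-142+/+) cells from a pool of 5 mice (3 females and 2 males). From each pool, Qa2- cells were sorted as CD4+CD8-CD69+Qa2- and Qa2+ cells as CD4+CD8-CD69-Qa2+. CD69 is lost and Qa2 gained as these cells mature towards leaving the thymus. All 4 populations were first depleted of CD8+ cells on magnetic beads, and no cell-type-restricted deletion is given in the labels, so Mir142 was also missing from the other blood cells of the mutant mice. The labels give no generation, clone or litter for the mutant, and its free-text description names Qa2+ cells for the array whose title and sort name Qa2-. The title and the sort were used.

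The arrays matched the labelled genotype and tissue but not the labelled sexes. Mir142 read log2 5.29 in miR-142-/- Qa2- cells and 10.11 in WT Qa2- cells, and it read 4.88 in miR-142-/- Qa2+ cells and 9.41 in WT Qa2+ cells. Xist, transcribed from the inactive X chromosome, read 5.06 and 4.83 in the miR-142-/- populations and 12.67 and 12.14 in the WT populations, while the Y-linked gene Eif2s3y read 10.55 and 10.58 in miR-142-/- and 4.29 and 4.39 in WT, and Kdm5d and Uty were likewise below background in WT. Pools of both sexes should show both, so each genotype difference below is also a difference between arrays that differ in sex-linked transcripts, and the part of sex in it cannot be told apart from genotype. Cd4 lay between 12.36 and 12.64 on all arrays. Cd69 read 10.55 in miR-142-/- Qa2+ against 11.51 in miR-142-/- Qa2- cells, and 10.55 in WT Qa2+ against 11.32 in WT Qa2- cells. Background was taken as log2 5.87, the 95th percentile of the mean values of 1190 olfactory and vomeronasal receptor genes. A gene counted as above background when its mean over the 4 arrays exceeded this value. Of the 9 genes, 8 were above it on every array, and Fancd2 passed through its WT arrays alone.

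The missing gene makes a pair of mature microRNAs, shown here to identify what the mutant cells lack, with the seed (bases 2 to 8) in capitals. The sequences are from RefSeq (GRCm38.p6, plus strand of chromosome 11), and the arms differ in seed.
mmu-miR-142a-5p: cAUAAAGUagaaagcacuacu
mmu-miR-142a-3p: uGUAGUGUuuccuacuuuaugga

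All 9 repair genes read lower in miR-142-/- than in WT cells in both sorted populations. Both miR-142-/- arrays lay below both WT arrays for 9 of 9 genes, an order found for 21.9% of the 12581 genes above background. The median difference of the 9 genes was -0.82 on the log2 scale in Qa2- cells and -1.10 in Qa2+ cells, against -0.0012 and 0.0010 for all genes above background. With Fancd2, below background in the mutant, at its bound the medians were -0.79 and -1.02. In Qa2- cells 8 of 9 were at least 1.5-fold lower, against 3.74% of all genes, and in Qa2+ cells 9 of 9 were, against 4.88%. None of the 9 was as much higher, while 3.1% and 4.55% of all genes were. At least 2-fold lower were 1 of 9 in Qa2- cells (1.29% of all genes) and 5 of 9 in Qa2+ cells (1.85%). The 1 gene in Qa2- cells was Fancd2, and with its bound these counts were 0 and 5. With 1 array per group none of these differences has a replicate check or a p-value. Since the 9 genes were chosen with earlier results of these data known, the shares of all genes beside them are no test of the list. In sorted bulk RNA, fewer cells of a type and less RNA per cell cannot be told apart.

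**Figure D1:**
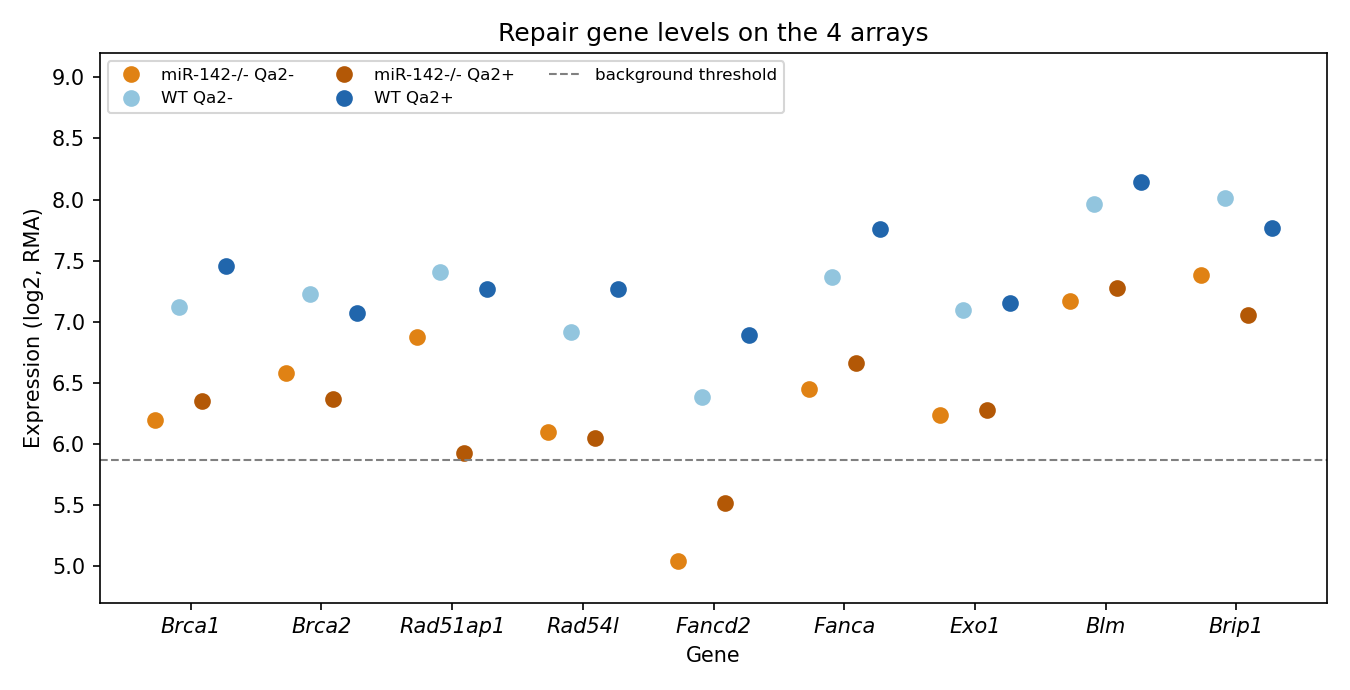
Log2 expression of the 9 repair genes on the 4 arrays, 1 point per array, with orange points for miR-142-/- and blue points for WT and the dashed line at the background threshold of 5.87. For each gene both orange points lie below both blue points, and the orange points of Fancd2 alone lie below the line.

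The order of the levels was much alike from gene to gene. The gap between the lower WT array and the higher miR-142-/- array ran from 0.39 for Brip1 to 0.83 for Exo1 among the 8 genes above background on every array, and it was at least 0.51 for Fancd2. The highest array was WT Qa2+ for Brca1, Rad54l, Fancd2, Fanca, Exo1 and Blm, and WT Qa2- for Brca2, Rad51ap1 and Brip1. Within a genotype, neighbouring populations often differed by no more than the scatter of receptor genes, whose stage differences had an SD of 0.21 in miR-142-/- and 0.22 in WT.

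The genes that act in the early steps of recombination were considered first. Exo1, a nuclease that resects DNA ends and also serves mismatch repair, read 6.24 in miR-142-/- and 7.10 in WT Qa2- cells, and 6.27 in miR-142-/- and 7.15 in WT Qa2+ cells. Its genotype differences of -0.86 and -0.88 were nearly equal in the populations. Brca1, a ubiquitin ligase subunit that promotes resection and recruits Brca2 through Palb2, read 6.20 in miR-142-/- and 7.12 in WT Qa2- cells. In Qa2+ cells Brca1 read 6.35 in miR-142-/- and 7.45 in WT, and it was 1.90-fold and 2.15-fold lower without miR-142. Brca2, a DNA-binding protein essential for recombination, read 6.58 in miR-142-/- and 7.23 in WT Qa2- cells, and 6.36 in miR-142-/- and 7.07 in WT Qa2+ cells. Its differences of -0.64 and -0.70 were among the smallest of the 9 genes.

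Rad51ap1 and Rad54l, both of the strand invasion step, differed more between the populations. Rad51ap1 read 6.87 in miR-142-/- and 7.40 in WT Qa2- cells, a difference of -0.53 that made it the 1 gene of 9 short of 1.5-fold there. In Qa2+ cells Rad51ap1 read 5.93 in miR-142-/-, just above background, and 7.27 in WT, a difference of -1.34. Rad54l, a motor protein that moves along DNA, read 6.10 in miR-142-/- and 6.92 in WT Qa2- cells. In Qa2+ cells Rad54l read 6.05 in miR-142-/- and 7.27 in WT, so its difference was -0.82 in Qa2- and -1.22 in Qa2+ cells.

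Blm and Brip1 encode helicases. Blm, which dissolves joined recombination intermediates, read 7.17 in miR-142-/- and 7.96 in WT Qa2- cells, and 7.27 in miR-142-/- and 8.14 in WT Qa2+ cells. It was 1.73-fold lower in miR-142-/- Qa2- and 1.83-fold lower in miR-142-/- Qa2+ cells. Brip1, which binds Brca1 and is itself a Fanconi gene, read 7.38 in miR-142-/- and 8.02 in WT Qa2- cells, and 7.05 in miR-142-/- and 7.77 in WT Qa2+ cells. Its differences were -0.63 and -0.72, close to those of Brca2. Brip1 and Brca1 lie on chromosome 11, as Mir142 does, and the part of this in their genotype differences was not tested.

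The genes of the list named after Fanconi anaemia were Fanca, a subunit of the core ubiquitin ligase complex, and Fancd2, the protein that this complex ubiquitinates. Fanca read 6.45 in miR-142-/- and 7.37 in WT Qa2- cells, and 6.66 in miR-142-/- and 7.76 in WT Qa2+ cells. It was 1.89-fold and 2.14-fold lower in the mutant populations. Fancd2 read 5.04 in miR-142-/- and 6.38 in WT Qa2- cells, and 5.52 in miR-142-/- and 6.89 in WT Qa2+ cells. Both mutant values were below background, so Fancd2 was at least 1.43-fold lower in Qa2- and at least 2.03-fold lower in Qa2+ cells when set against the threshold, and the bound in Qa2- cells does not reach 1.5-fold. With the bound in place of the measured difference the count in Qa2- cells was 7 of 9. The difference as measured was -1.34 and -1.37, and its rank among the 9 genes is not known.

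**Figure D2:**
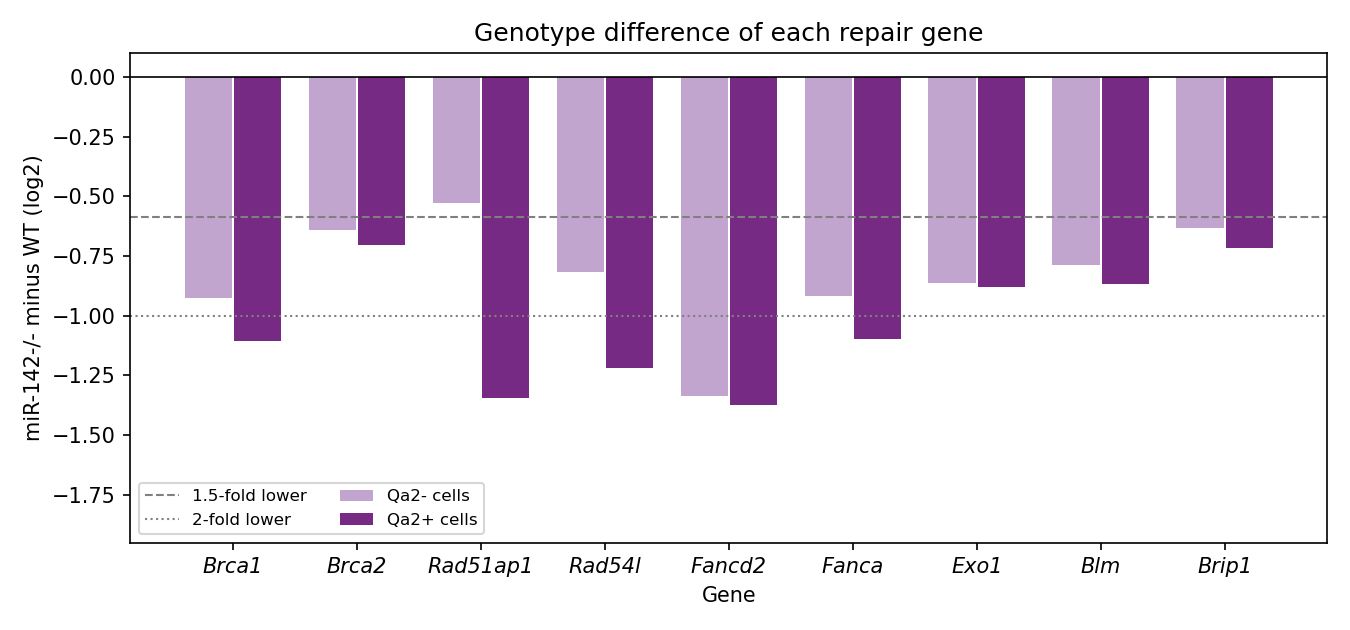
Genotype difference (miR-142-/- minus WT, log2) of each repair gene in Qa2- cells (light bars) and Qa2+ cells (dark bars), 1 array per group and no error bars, with lines at 1.5-fold and 2-fold lower. All bars point down. Apart from Fancd2, below background in the mutant, they run from -0.53 for Rad51ap1 in Qa2- cells to -1.34 for Rad51ap1 in Qa2+ cells.

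The genotype difference read the more negative in Qa2+ cells for each of the 9 genes, mostly by less than the SD of receptor genes given below. The share of all genes with this sign was not counted, so the shared sign shows nothing about the list. The difference of the genotype differences (Qa2+ minus Qa2-) had a median of -0.08 over the 9 genes, against -0.0009 over all genes above background, and a median of -0.18 with Fancd2 at the background threshold in the mutant. It was -0.82 for Rad51ap1, -0.40 for Rad54l, -0.18 for Brca1 and -0.18 for Fanca, and between -0.08 and -0.02 for Brca2, Exo1, Blm and Brip1. The value for Fancd2 rests on mutant levels below background and was -0.51 with these at the threshold. At least 1.5-fold either way was reached by 1 of 9 genes, Rad51ap1, against 3.4% of all genes. Receptor genes scattered in this measure with an SD of 0.22, and no test is possible with 1 array per group.

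The stage comparison asked how Qa2+ cells differ from Qa2- cells. In miR-142-/- cells, 1 of 9 genes was at least 1.5-fold lower at the Qa2+ stage, Rad51ap1 with a difference of -0.95, against 3.64% of all genes, and 0 of 9 were as much higher, against 2.65%. In WT cells 0 of 9 were at least 1.5-fold lower or higher, against 3.7% and 2.69%. The WT count became 1 when arrays were centred on their medians or quantile normalized. The 9 genes did not share a direction. Brca2, Rad51ap1 and Brip1 read lower in Qa2+ cells of both genotypes, and Brca1, Fanca, Exo1 and Blm read higher in both. Fancd2 read higher in WT Qa2+ cells, while its miR-142-/- values lay below background in both populations. Rad54l differed by -0.05 in miR-142-/- and 0.35 in WT, and its miR-142-/- value was 0.02 after centring and 0.04 after quantile normalization.

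Averaged over genotypes, 1 of the 9 genes passed a test of the stage difference. Fancd2 rose in Qa2+ cells by 0.49 ± 0.10 (log2 difference ± SE, limma with genotype as a block, 2 pairs, Benjamini-Hochberg adjusted p = 0.017), with 0.47 in miR-142-/- and 0.51 in WT, higher in 2 of 2 pairs. The miR-142-/- difference lies wholly below background and is 0 with both values at the threshold, so 1 measured pair stands behind the call. Without the genotype block the call was lost (limma, adjusted p = 0.80), but so was that of every other gene, so this loss is not particular to Fancd2. Over all genes, 4.89% were called higher and 8.54% lower in Qa2+ cells, so 1 of 9 is near the background share and shows nothing about the list. Of all calls 36.4% were higher on the deposited scale, while centring gave 59.6% and quantile normalization 56.0%, so the split of directions depends on scaling. Rad51ap1 differed by -0.54 ± 0.17 (limma, adjusted p = 0.079), with -0.95 in the miR-142-/- pair and -0.13 in the WT pair, and Fanca by 0.30 ± 0.10 (limma, adjusted p = 0.093). Brip1 differed by -0.29 ± 0.10 (limma, adjusted p = 0.095) and Brca1 by 0.24 ± 0.10 (limma, adjusted p = 0.17). The other 4 lay between -0.19 and 0.15 with adjusted p from 0.24 to 0.79 in limma. Among receptor genes 6.3% passed this test when no gene was filtered out, so a call at low signal need not reflect expression. Of 7 double-positive thymocyte markers above background, 5 rose in limma in Qa2+ cells, the population sorted as the more mature. Cd8a and Cd8b1 did not rise, with -0.08 and -0.49 in miR-142-/- and -0.06 and 0.01 in WT. The summed linear level of the 8 with a probe set was 2614 in miR-142-/- Qa2+ against 1696 in miR-142-/- Qa2- cells. In WT it was 2771 in Qa2+ against 1781 in Qa2- cells. By genotype these markers were mixed, with 1 past 1.5-fold lower and 2 higher in Qa2- cells, and 2 lower and 1 higher in Qa2+ cells. The cause of the rise was not tested, nor was the part of these markers in the repair gene values.

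**Figure D3:**
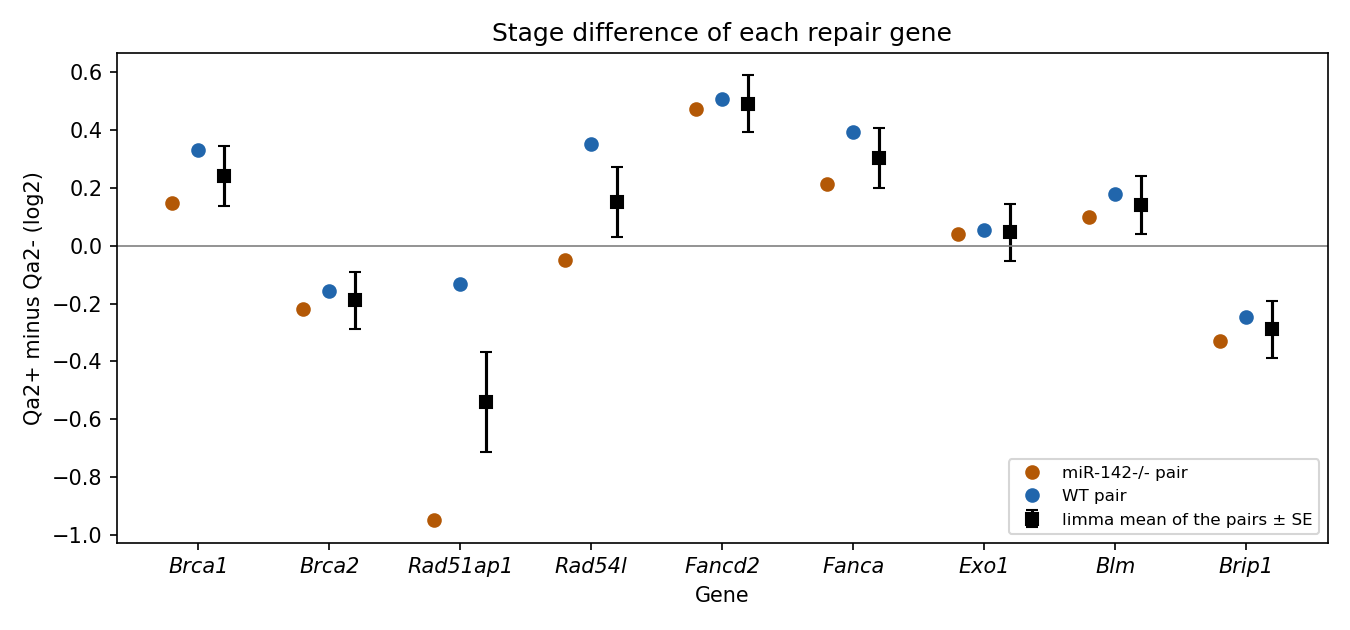
Stage difference (Qa2+ minus Qa2-, log2) of each repair gene in the miR-142-/- pair and the WT pair, with the limma mean of both pairs and its SE. The pairs lie within 0.18 of each other for 7 genes and apart for Rad51ap1 and Rad54l, and Fancd2 has a mean of 0.49 that includes miR-142-/- values below background.

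Other recombination genes were set beside the 9. Of 34 further genes of homologous recombination, 30 had a single-gene probe set and 29 were above background, and 4 of these 29 were past 1.5-fold lower in the mutant in each population, with none as much higher. Their medians were -0.25 in Qa2- and -0.20 in Qa2+ cells. Bard1, the obligate partner of Brca1, differed by -0.88 and -0.97, Rad54b, a relative of Rad54l, by -1.29 and -0.95, and Dna2, a nuclease of long-range resection, by -1.15 and -1.07. Rpa2, a subunit of the single-strand binding protein, differed by -0.61 in Qa2- and -0.42 in Qa2+ cells, and the fourth gene in Qa2+ cells was the nuclease subunit gene Eme1 at -0.62. Chosen after their values were seen, the genes of the break-sensing complex stood near 0, with Mre11a at -0.09 and 0.08, Rad50 at -0.06 and 0.00 and Nbn at -0.15 and 0.07.

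The further genes listed for the Fanconi pathway differed little between genotypes. Rad51c, Palb2 and Slx4 were counted with homologous recombination and not here. They differed by -0.38, -0.46 and 0.05 in Qa2- cells and by -0.58, -0.16 and 0.08 in Qa2+ cells, none past 1.5-fold. Their placement can shift the medians of these lists but not the counts past 1.5-fold. Of 20 further genes, all above background, 0 were at least 1.5-fold lower or higher in either population, with medians of -0.17 and -0.07. The members with the largest differences were Rfwd3, a ubiquitin ligase (-0.53 in Qa2- and -0.32 in Qa2+ cells), Ube2t, the ubiquitin-conjugating enzyme that serves Fancd2 (-0.35 and -0.50), Fancf of the core complex (-0.29 and -0.48) and the nuclease gene Fan1 (-0.28 and -0.46). Fanci, the binding partner of Fancd2, differed by -0.11 and 0.09 and was named after its values were seen. In the averaged stage test 0 of these 20 genes passed in either direction, with 4 at an unadjusted p under 0.05, against 1 called higher and 2 lower of the 29 recombination genes (limma).

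Checkpoint genes, which halt the cycle at damaged or stalled DNA, were mixed. Of 20 above background, loss of miR-142 went with a level at least 1.5-fold lower for 5 in Qa2- cells and for 6 in Qa2+ cells, and the medians were -0.32 and -0.20. With values below background at the threshold the counts were 4 and 6. Chek1, the kinase of the replication checkpoint, differed by -1.78 and -1.64, Wee1, which restrains mitotic entry, by -1.36 and -1.32, and Tipin, of the fork protection complex, by -1.10 and -0.67. Clspn, the Chek1 adaptor, read below background in miR-142-/- (5.49 and 5.43), against 6.41 and 6.65 in WT.

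The other repair pathways mostly stood near 0. Of 10 end joining genes 1 was past 1.5-fold, the polymerase gene Polm at -0.82 in Qa2+ cells, and the medians were -0.10 and 0.04, while Prkdc, the kinase of this pathway, differed by -0.10 and -0.13. Of 5 mismatch repair genes none was lower by that much and Msh6, a mismatch-binding subunit, was 0.32 higher in Qa2- and 0.75 higher in Qa2+ cells, with list medians of 0.16 and 0.27. Of 15 base excision genes 2 were lower in each population, the glycosylase gene Neil3 (-1.97 and -1.90) and the replicative ligase gene Lig1 (-1.43 and -0.83), with list medians of -0.05 and -0.12. Of 11 nucleotide excision genes 0 were past 1.5-fold in either population, with medians of -0.04 and 0.05, and their members Xpa and Ercc5 stood at -0.21 and 0.29 in the Qa2- comparison and at -0.37 and 0.37 in the Qa2+ comparison.

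**Figure D4:**
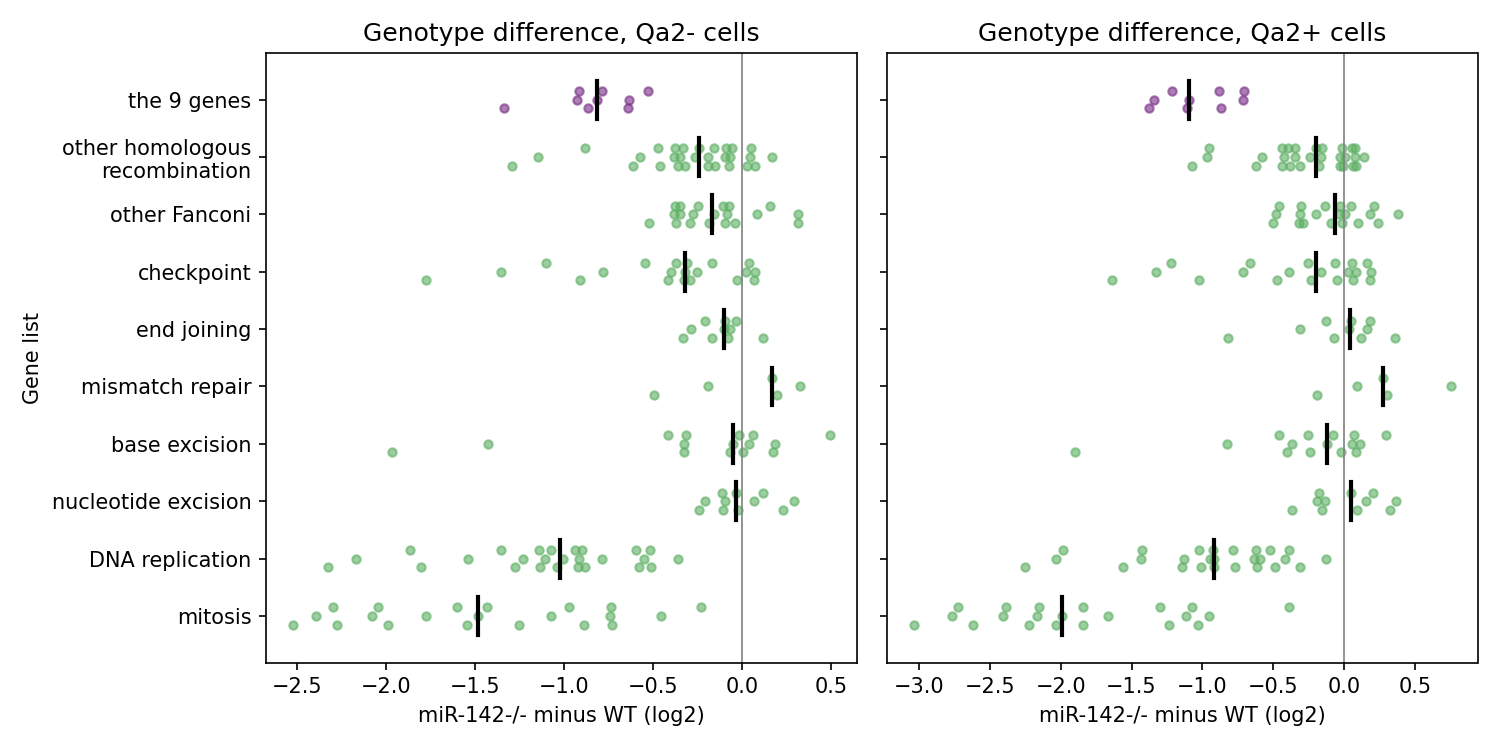
Genotype difference (miR-142-/- minus WT, log2) of every gene above background in 10 lists, 1 point per gene and a black bar at each list's median, for Qa2- cells (left) and Qa2+ cells (right). The 9 repair genes (purple, medians -0.82 and -1.10) lie nearer to the DNA replication list (-1.02 and -0.92) than to the other Fanconi genes (-0.17 and -0.07). The 9 genes and the lists were chosen with earlier results of these data known, so these distances are no test.

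Proliferation genes moved with the 9 repair genes. Of 26 DNA replication genes above background, 21 were past 1.5-fold lower in mutant Qa2- cells and 20 in mutant Qa2+ cells, with medians of -1.02 and -0.92. The summed linear level of the 27 with a probe set was 8890 in miR-142-/- and 16215 in WT Qa2- cells, and 9532 in miR-142-/- and 16601 in WT Qa2+ cells. Of 21 mitosis genes, 19 and 20 were as much lower, with medians of -1.48 and -1.99, and with values below background at the threshold 18 and 20 were, with medians of -1.44 and -1.84. Their summed level was 2450 in miR-142-/- and 7528 in WT Qa2- cells, and 2894 in miR-142-/- and 11922 in WT Qa2+ cells. Pole and Rrm2, of DNA synthesis, stood at -2.33 and -2.17 in the Qa2- comparison and at -2.03 and -2.25 in the Qa2+ comparison. The mitotic genes Bub1 and Nusap1 stood at -2.52 and -2.28 in the Qa2- comparison and at -2.73 and -3.04 in the Qa2+ comparison. Bub1 read 5.37 in miR-142-/- Qa2- cells, below background. By stage, 12 of the 21 mitosis genes read at least 1.5-fold higher in WT Qa2+ than in WT Qa2- cells, a median rise of 0.61. For the miR-142-/- pair 3 of 21 did, and the median rise was 0.10. In neither genotype was any mitosis gene as much lower. Bub1, among the 3 genes so counted in miR-142-/-, went from 5.37, below background, to 6.00. On the miR-142-/- arrays 17 of the 21 were above background in Qa2- and 18 in Qa2+ cells, against 21 on each WT array. Low signal therefore limits the stage values of the miR-142-/- pair. Averaged over genotypes, limma called 7 of the 21 higher and 0 lower in Qa2+ cells. DNA replication genes were mixed, with 3 of 26 called higher and 2 lower (limma). The cause of the stage differences was not tested, nor was the part of proliferation in the repair gene differences.

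Markers of innate-like or effector T cells also moved with genotype. Of 8 such genes, 8 were past 1.5-fold lower in mutant Qa2- cells and 6 in mutant Qa2+ cells (8 and 5 with values below background at the threshold), and their summed linear level was 1325 in miR-142-/- and 4616 in WT Qa2- cells, and 1548 in miR-142-/- and 3395 in WT Qa2+ cells. Gzmb was below background on both miR-142-/- arrays, and Klrd1 too. Their part in the repair gene differences was not tested. The 5 CD4 T cell markers with a probe set summed to 28691 in miR-142-/- and 28811 in WT Qa2- cells, and to 25426 in miR-142-/- and 25441 in WT Qa2+ cells. Of 5 B cell markers 1, Cd79b, was above background on each array, and of 6 myeloid and dendritic markers 2 on the miR-142-/- Qa2- and 1 on the WT Qa2- array, and 3 on the miR-142-/- Qa2+ and 4 on the WT Qa2+ array. The single gamma-delta marker with a probe set, Sox13, was above background on all arrays, as were 1 or 2 of 3 erythroid and 3 or 4 of 6 stromal markers.

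The genes above background whose profile over the 4 arrays was most like the mean profile of the 9, by Euclidean distance after each gene was centred on its own mean, were Lgals3bp, Rhbdf2, Car2, E2f7, Aurka, Rrm1, Tcf19 and Cip2a. Their distances were 0.07 to 0.12 log2 units over 4 arrays. Of the 9 genes themselves, Exo1 lay nearest to the mean profile at 0.11 and Rad51ap1 at 0.65, and the distance of Fancd2, 0.63, rests on values below background. E2f7, a repressor of the E2F family, differed between genotypes by -0.92 and -0.99, and Rrm1, a ribonucleotide reductase subunit gene, by -0.94 and -0.93.

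Since the 9 genes read lower together in miR-142-/- cells, their promoters were searched for letters known from cell cycle genes. RefSeq promoters (GRCm38.p6, 250 bases before to 50 after the start) were at hand for 7 of the 9, all but Fancd2 and Exo1. The core of the E2F motif was searched as the letters TTCCCGC (found in Brca2 and Rad51ap1), as the version TTGGCGC (Brca1), as TTCGCGC in the case of Brip1 and as TTGCCGC in that of Blm, each on both strands of every promoter, and in these promoters no match of it overlapped one of the CCAAT or TTTGAA motifs. It was found in 5 of 7 promoters, those of Brca1, Brca2, Rad51ap1, Blm and Brip1, against 9.6% of all 32851 promoters and 16.6% of the 10031 genes above background that had one. CCAAT was found in 6 of 7, all but Brca2, against 37.4% of all promoters and 38.0% of those of genes above background, and TTTGAA, the core of the cell cycle homology region, in 0 of 7 against 17.9% and 11.7%. These are matches of letters and say nothing of binding. The 3 promoters whose E2F match lies nearest to the start are shown, with the match in capitals, as read 5′ to 3′ along the gene's strand. All 3 matches lie on the opposite strand, so the capitals are the reverse complement of the letters searched. They span chr11:101551906-101552205 for Brca1, chr6:126939538-126939837 for Rad51ap1 and chr11:86201144-86201443 for Brip1, each on the minus strand.
Brca1: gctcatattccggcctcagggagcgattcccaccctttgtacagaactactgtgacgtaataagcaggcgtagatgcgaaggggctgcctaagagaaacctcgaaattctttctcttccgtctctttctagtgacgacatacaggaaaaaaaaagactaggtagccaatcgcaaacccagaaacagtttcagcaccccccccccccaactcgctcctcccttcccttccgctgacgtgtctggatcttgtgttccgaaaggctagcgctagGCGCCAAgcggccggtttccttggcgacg
Rad51ap1: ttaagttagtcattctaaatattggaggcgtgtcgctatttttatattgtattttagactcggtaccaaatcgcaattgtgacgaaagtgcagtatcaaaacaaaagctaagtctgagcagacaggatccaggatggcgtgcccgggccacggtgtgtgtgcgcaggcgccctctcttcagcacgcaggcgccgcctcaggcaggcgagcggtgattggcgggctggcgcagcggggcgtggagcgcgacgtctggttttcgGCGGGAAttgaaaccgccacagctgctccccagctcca
Brip1: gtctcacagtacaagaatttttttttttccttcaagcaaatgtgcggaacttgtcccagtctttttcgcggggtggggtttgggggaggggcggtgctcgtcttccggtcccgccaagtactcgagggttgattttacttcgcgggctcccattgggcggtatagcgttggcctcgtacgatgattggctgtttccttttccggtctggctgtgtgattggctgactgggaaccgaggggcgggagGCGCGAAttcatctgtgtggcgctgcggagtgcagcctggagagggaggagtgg
Counted with the start base as 1 and no base 0, the match spans bases 22 to 28 in Brca1, 13 to 19 in Rad51ap1 and -4 to 3 in Brip1. In Brca2 it spans -168 to -162 and in Blm -142 to -136. The 2 genes with a promoter and no E2F match, Rad54l and Fanca, were also lower in miR-142-/- cells, by the differences given above.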

How the data were processed

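RNA of 4 sorted populations was hybridised to 1 array each. The deposited values are log2 expression per probe set, made by the authors with RMA and Partek per the submitters' processing notes, which name no versions here. RMA is meant to equalise arrays, and it compresses differences of dim probe sets. The deposited arrays were not fully level. Medians over all probe sets were 6.74 in miR-142-/- Qa2-, 6.71 in WT Qa2-, 6.67 in miR-142-/- Qa2+ and 6.61 in WT Qa2+ cells. Of 35557 probe sets, 21789 had 1 gene in the platform annotation, 1621 several and 12147 none, and 21698 matched GRCm38.p6 gene records by Entrez ID. A gene took its brightest single-gene probe set. Genes whose mean exceeded log2 5.87 were kept, and probe sets near it are the least precise. Genotype and stage differences were subtractions, counted at 1.5-fold and 2-fold. Precision is limited by 1 array per group. The averaged stage difference was tested with limma 3.58.1 (R 4.3.3), genotype as a block, 1 residual degree of freedom, a prior of 7.11, two-sided, Benjamini-Hochberg over 12581 genes, threshold 0.05. Its p-values measure how far the stage difference disagrees between the 2 pools, with a prior drawn from all genes, and not the spread between mice. Each pool is 1 genotype, so a genotype effect on the stage difference counts as noise. In simulated data with 200 of 12581 genes changed, 100% of changes of log2 1 and 100% of log2 2 were recovered, but 35 of 235 calls were unchanged genes, so adjusted p-values are too small. Changes below log2 1, where all averaged stage differences of the 9 genes lie, were not simulated, so their recovery is not known. Named genes were the 9 genes, up to 4 genes of each repair list and up to 2 of each proliferation list with the largest mean genotype difference, and the 8 most alike profiles. The members and lists were chosen with earlier results of these data known. Alternatives were centring, quantile normalization, 2 other background filters, the mean over probe sets, no genotype block and an intensity trend.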

Additional observations from a re-analysis of the deposited data

Results flagged for a closer look

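Rad54l was picked out because its stage differences (Qa2+ minus Qa2-) lay on opposite sides of 0, at -0.048 in miR-142-/- and 0.351 in WT. The signs differed on the deposited scale alone: after centring the values were 0.019 in miR-142-/- and 0.453 in WT, and after quantile normalization 0.038 in miR-142-/- and 0.454 in WT. The difference between the genotypes was not tested, since each rests on 1 pair of arrays, and -0.048 is within the scatter of receptor genes (SD 0.21).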

How the results depend on the processing

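Under centring, quantile normalization, the 99th percentile background, no background filter and the mean over probe sets, all genotype differences of the 9 genes that could be computed kept their sign. The counts at least 1.5-fold lower stayed at 8 in Qa2- and 9 in Qa2+ cells in all of these but the 99th percentile background (log2 6.75), where 5 and 6 of the 6 genes left were counted. Counted at 2-fold they were 1 and 5 (0 and 5 with Fancd2, below background in the mutant, at its bound), and the stage count in miR-142-/- was 0. With values below background set to the threshold, an alternative chosen after seeing the data, Fancd2 differed by -0.51 and -1.02, and 7 and 9 genes were at least 1.5-fold lower. In WT the stage count was 1 after centring and 1 after quantile normalization, where it was 0 as deposited. Averaged over genotypes, the limma count was 2 after centring and 2 after quantile normalization, with Fanca added (adjusted p = 0.037 and 0.040), and 0 without the genotype block, where 0 of 12581 genes passed and 1543 had an unadjusted p under 0.05. At the 99th percentile background Fancd2 was no longer tested and Rad51ap1 passed (limma, adjusted p = 0.048), with -0.949 in the miR-142-/- pair and -0.132 in the WT pair. The cause of these shifts was not tested, apart from the 3 genes that the stricter background removes. Genes near background, Fancd2 above all, are limited by signal.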
